A study of Homo sapiens with 6 samples.

Results

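The genes described here are 50 leukocyte surface antigens and adhesion receptors, taken as a named list and matched to probe sets whose platform annotation gives the gene as the only symbol. Of the 50 genes, 48 had such a probe set, out of 19775 genes with one on the array. CD33 had none, and the only probe set for CD68 is annotated to a second gene as well, so neither is described as a gene. RNA came from Kasumi-1, an established human acute myeloid leukaemia line with the t(8;21) translocation, which fuses RUNX1 to RUNX1T1. The 2 groups were Kasumi-1 cells treated with 20 nM homoharringtonine (HHT) for 24 h (3 arrays) and Kasumi-1 cells given vehicle for 24 h (3 arrays). The alkaloid HHT stops ribosomes early in elongation. Both groups are the same line, so the results are those of 1 line at 1 dose and 1 time. The labels do not say whether the arrays of a group came from separate cultures, so p-values cover just the variation among these 6 arrays, and that variation may be technical only.

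Surface antigens are the proteins by which blood cells are typed. CD34 and PROM1 mark stem and progenitor cells, ANPEP (CD13) and CD33 mark the myeloid lineage, CD14 marks monocytes, and PTPRC (CD45) is carried by nearly all white cells. Integrins are pairs of an alpha and a beta chain that bind matrix and vessel wall, and with selectin ligands and CD44 they hold leukaemic blasts in the marrow. Tetraspanins organise other receptors into membrane domains, and CD47, CD55 and CD59 shield cells from phagocytes and complement. The arrays measured the RNA of these genes and not the proteins on the cell surface. In a bulk sample, fewer cells with a transcript and less of it per cell cannot be told apart.

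Each value is a log2 signal, 1 per probe set and array, and a gene is described by its probe set of highest mean over the 6 arrays unless another is named. Probe sets differ in how well they hybridise, so the signal of 1 gene is not set against that of another as an amount of RNA. The 40% of probe sets with the lowest mean were left out of the test, at a log2 signal of 4.80, called the filter level below. That level is a choice and no measured detection limit. Differences are HHT minus vehicle, with standard errors (SE) from limma, and group errors are standard deviations (SD, n = 3). Genes with limma's adjusted p under 0.05, taken over every probe set in the fit, are termed called, and rose and fell are used only of these. Across probe sets, arrays of 1 group correlated at 0.917 to 0.935 and arrays of different groups at 0.901 to 0.910, and array medians were 5.53 to 5.78 in HHT and 5.82 to 5.96 in vehicle. The 18 hybridisation controls, RNAs added to every sample, were all lower in HHT, on average by -0.28. Their two-sided exact permutation p was 0.1, the lowest possible with 3 arrays on each side. Some small negative changes depended on how the arrays were scaled, and these are named where they occur.

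In vehicle, 35 of the 48 genes lay above the filter level on all 3 arrays, 10 on 1 or 2 arrays and 3 on none. The line's labelled identity was checked first. RUNX1T1, the fusion partner, had log2 signals of 13.16 to 13.23 in HHT and 13.20 to 13.27 in vehicle, and MPO, the myeloid granule peroxidase, had 12.48 to 12.85 in HHT and 14.32 to 14.47 in vehicle. The progenitor antigen CD34 had 9.17 to 9.25 in vehicle, and the pan-leukocyte PTPRC had 12.38 to 12.47. ANPEP, a membrane peptidase of myeloid cells, had 7.34 to 7.90. The vehicle mean of CD200, a ligand that restrains myeloid cells, was 12.20 ± 0.227. Those of CD44, a hyaluronan receptor, and ITGB1, the beta chain of the matrix-binding integrins, were 14.39 ± 0.0124 and 14.01 ± 0.0476. CD14, the monocyte co-receptor for bacterial lipopolysaccharide, had 1.16 to 3.51 and lay below the filter level on every vehicle array. NKG7, a protein of cytotoxic granules, and CD226, an activating adhesion receptor of lymphocytes, did too.

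**Figure D1:**
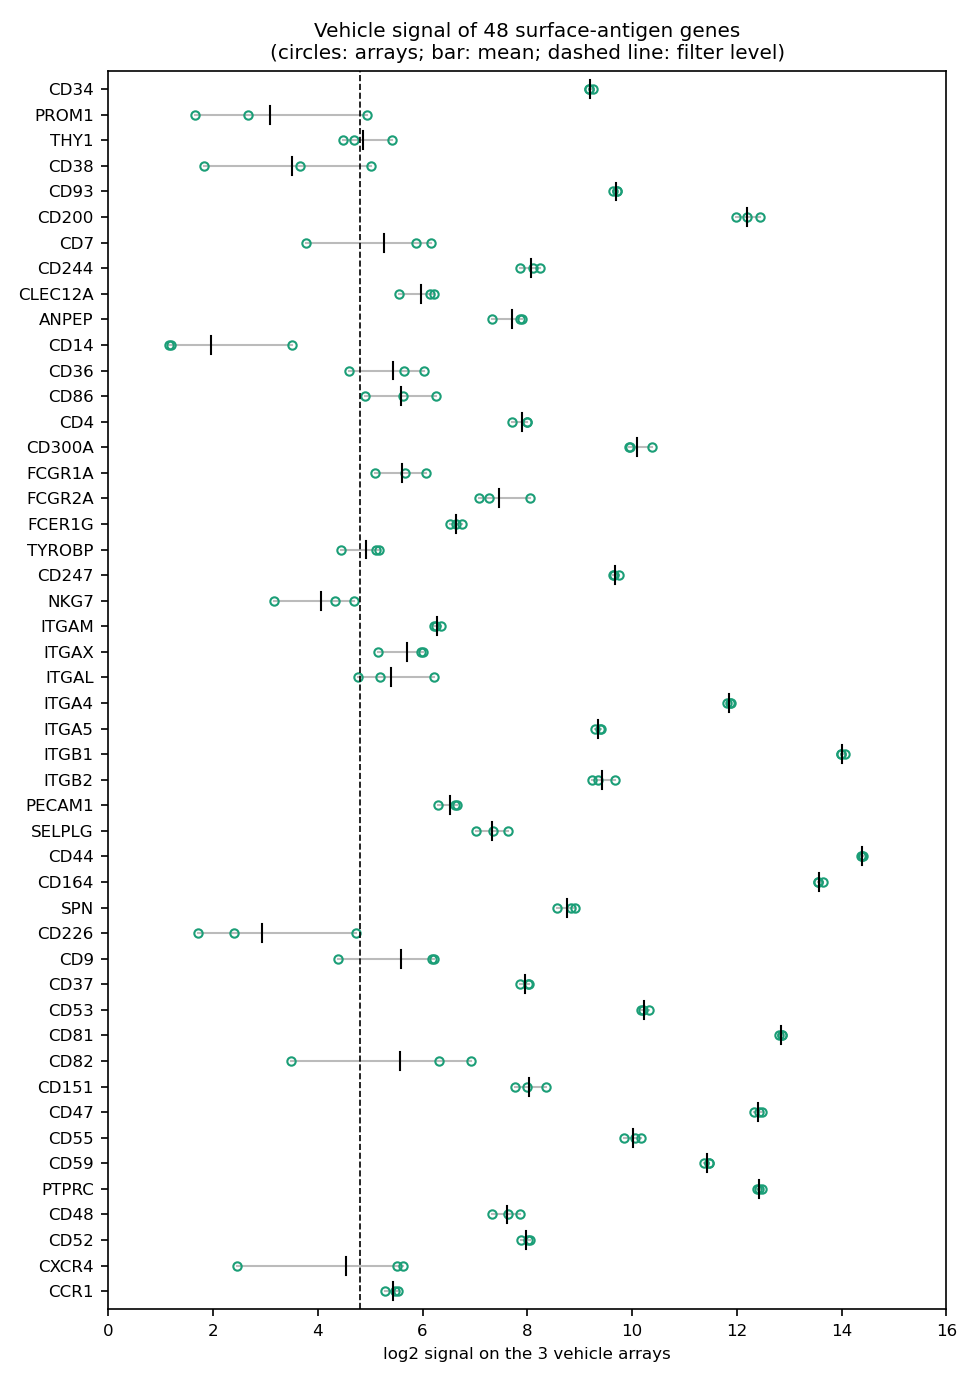
Log2 signal of the 48 genes on the 3 vehicle arrays (circles, x axis), with the mean as a bar and the filter level of 4.80 as a dashed line. CD14, NKG7 and CD226 have no vehicle array to the right of the line, and dim genes such as CD82 are spread over several log2 units while bright genes such as CD44 are not.

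Of the 48 genes, 42 passed the filter and were tested, and 6 did not (PROM1, CD38, CD14, CD36, CD226 and CXCR4). In HHT 13 of the 42 fell, 10 rose and 19 were not called. The 23 called genes are 54.8% of those tested, beside 53.8% of all 13572 genes tested, so a change as such was not particular to surface antigens. Genes that fell were 31.0% against 24.2% of all genes, and genes that rose were 23.8% against 29.6%. Counting only changes of 1 log2 unit or more, 7 genes fell and 5 rose. These are 28.6% of the genes tested here and 15.5% of all, or 16.7% and 5.94% for those that fell and 11.9% and 9.56% for those that rose. These shares are as deposited and the genes behind them changed with the scaling. With equal medians CD34 (-0.94) and SELPLG (-0.93) fell by less than 1 and CLEC12A was not called, while PTPRC rose by 1.01. CLEC12A and NKG7 are among the 12 by fitted values that lie partly under the filter level. The groups did not overlap for 27 of the 42 genes (64.3%), beside 62.2% of all genes. The median change was -0.23 over the 42 genes and -4.15e-05 over all genes. Both depended on the scaling: the 2 medians were 0.0042 and 0.24 once array medians were made equal, 0.049 and 0.28 once the hybridisation controls were, and -0.015 and 0.050 after quantile normalization. NKG7, CLEC12A and FCGR1A passed the filter although their mean in 1 group lay below its level. Of the 39 genes with both means above it, 21 were called.

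**Figure D2:**
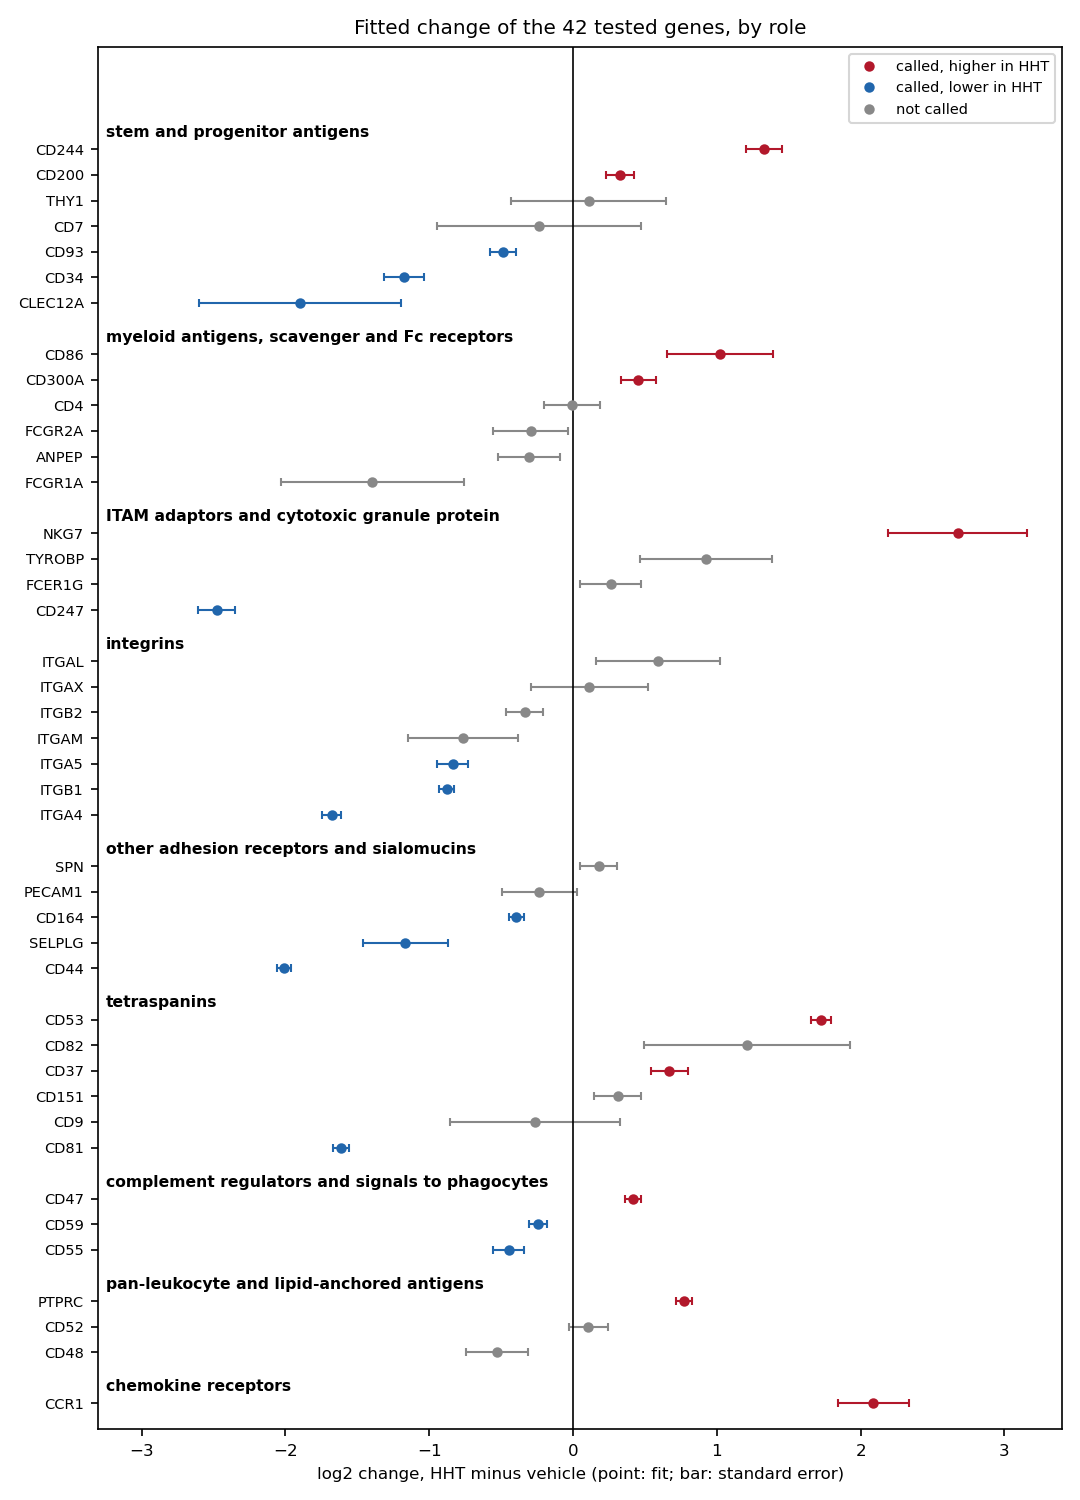
Fitted log2 change, HHT minus vehicle (x axis), of the 42 tested genes grouped by role, with the standard error as a bar. Red points were called higher in HHT, blue points lower and grey points were not called, and no integrin or other adhesion receptor is red. NKG7, CLEC12A and FCGR1A, with 1 mean under the filter level, are plotted at their fitted values.

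By the probe set that stands for each gene, the adhesion receptors that were called all fell. Of 7 integrin chains, 3 fell (ITGA4, ITGA5 and ITGB1) and 4 were not called (ITGAM, ITGAX, ITGAL and ITGB2). The median of -0.76 is the value of ITGAM itself, whose probe sets disagree, so no direction is read from it. Of 5 other adhesion receptors tested, CD44, CD164 and SELPLG fell, and PECAM1 and SPN were not called, with a median of -0.39. The call of CD164 was lost under the 3 other scalings. Beside these counts, 53.8% of all genes tested were called, with 24.2% that fell and 29.6% that rose. The 3 integrin chains that fell make up the fibronectin receptors, alpha 4 with beta 1 and alpha 5 with beta 1, whereas the 4 not called are the chains of the leukocyte beta 2 integrins.

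ITGA4, the alpha 4 chain that binds VCAM1 and fibronectin, had log2 signals of 10.15, 10.13 and 10.24 in HHT and of 11.81, 11.89 and 11.86 in vehicle. The groups lay far apart, and ITGA4 fell by 1.68 (SE 0.067, adjusted p = 4.23e-08), a 3.20-fold lower signal. All 4 of its probe sets fell, by 1.53 to 1.99. ITGB1 had 13.11, 13.15 and 13.14 in HHT and 14.07, 13.98 and 13.99 in vehicle. It fell by 0.88 (SE 0.049, adjusted p = 3.13e-07), or by 0.57 after quantile normalization, where it was still called. Its 3 bright probe sets fell by 0.85 to 0.96, and a dim one, with an HHT mean of 4.78 under the filter level, was not called. ITGA5, the alpha 5 chain, had 8.62, 8.56 and 8.39 in HHT and 9.29, 9.40 and 9.38 in vehicle, and fell by 0.84 (SE 0.11, adjusted p = 9.38e-05), or by 0.55 with equal hybridisation controls. The log2 ratio of ITGA4 to its partner ITGB1, which array scaling by a constant does not move, averaged -2.96 ± 0.061 in HHT and -2.16 ± 0.088 in vehicle (exact permutation p = 0.1, two-sided). On these arrays the signal of the ITGA4 probe set thus fell by more than that of the ITGB1 probe set, a pair chosen with its values known. Whether the RNA amounts differed likewise was not tested. The ratio of ITGA5 to ITGB1 averaged -4.61 ± 0.132 in HHT and -4.66 ± 0.109 in vehicle, and its groups overlapped (exact permutation p = 0.6, two-sided).

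ITGB2, the beta chain shared by the leukocyte integrins, had 9.09, 8.98 and 9.19 in HHT and 9.23, 9.35 and 9.68 in vehicle. Every HHT array was lower, but the change of -0.33 (SE 0.13, adjusted p = 0.0545) was not called. It was called after quantile normalization (-0.43, adjusted p = 0.0195) and without vehicle replicate 1 (-0.43, adjusted p = 0.0253), among others, and was -0.10 with equal medians. ITGAM, the alpha M chain of the complement receptor on granulocytes and monocytes, had 6.10, 4.81 and 5.63 in HHT and 6.25, 6.21 and 6.36 in vehicle, and its change of -0.76 (SE 0.38, adjusted p = 0.131) was not called. A second ITGAM probe set went the other way. It had 6.80, 6.88 and 7.03 in HHT and 3.44, 4.99 and 5.84 in vehicle. As its vehicle mean of 4.76 lay under the filter level, it is given as at least 3.24-fold higher (adjusted p = 0.00739 without that bound). The probe sets of ITGAM disagree, and no direction is given for the gene. ITGAX, the alpha X chain, differed by 0.11 (adjusted p = 0.845) and ITGAL, the alpha L chain, by 0.59 (adjusted p = 0.290). The ITGAL arrays overlapped between the groups, and so did those of ITGAX.

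CD44 had log2 signals of 12.39, 12.43 and 12.32 in HHT and of 14.38, 14.40 and 14.38 in vehicle. It fell by 2.01 (SE 0.051, adjusted p = 5.29e-09), a 4.02-fold lower signal. Of its 13 probe sets 10 were tested, and all 10 fell, with changes from -3.52 to -1.47. The change of -3.52 belonged to a probe set with 7.10, 6.97 and 6.68 in HHT and 10.49, 10.49 and 10.34 in vehicle. It was singled out as the largest change of the 10, so its distance from the others was not tested. Which CD44 transcripts each probe set measures is not given in the sources used here.

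SELPLG, the P-selectin ligand on white cells, had 6.49, 5.58 and 6.41 in HHT and 7.34, 7.02 and 7.63 in vehicle, and fell by 1.17 (SE 0.30, adjusted p = 0.00786). CD164, a sialomucin of progenitor cells, fell by 0.39 (SE 0.055, adjusted p = 0.000154), as did its other 2 probe sets, by 0.27 and 0.84. The brightest CD164 probe set was not called with equal medians (-0.15), equal hybridisation controls (-0.11) or quantile normalization (-0.10). PECAM1, a junctional adhesion molecule, differed by -0.23 (adjusted p = 0.498). Its other tested probe sets were not called either, at 0.024 (adjusted p = 0.961) and at -0.92 (adjusted p = 0.117), the latter with its HHT mean under the filter level. With no filter, a further PECAM1 probe set differed by -3.20 (adjusted p = 0.0183), but both its means, 1.52 in HHT and 4.72 in vehicle, lay under that level. The last differed by 0.89 with no filter (adjusted p = 0.620). SPN, a large sialomucin also called CD43, differed by 0.18 (adjusted p = 0.279) and was called only with equal medians (0.42) and equal hybridisation controls (0.46) among the alternatives tried.

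**Figure D3:**
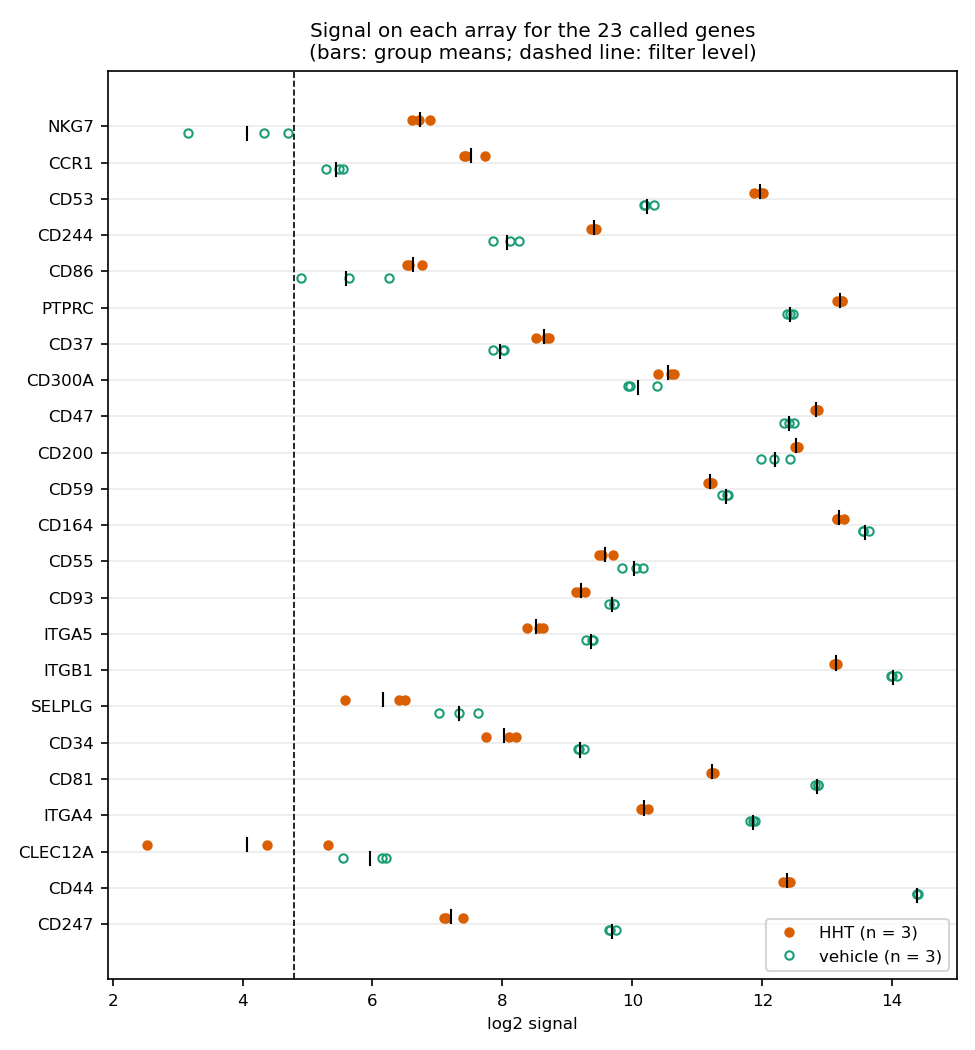
Log2 signal (x axis) of the 23 called genes on each array, HHT as filled orange points above vehicle as open green circles, with group means as bars and the filter level as a dashed line. The groups do not overlap for any of the 23, and the vehicle arrays of NKG7 and 2 of the 3 HHT arrays of CLEC12A lie below the filter level.

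Progenitor antigens moved in both directions: of 7 tested, CD34, CD93 and CLEC12A fell, CD244 and CD200 rose, and THY1 and CD7 were not called. CD34 had log2 signals of 7.75, 8.11 and 8.22 in HHT and of 9.18, 9.25 and 9.17 in vehicle. The groups were well separated, and CD34 fell by 1.18 (SE 0.14, adjusted p = 4.65e-05), a 2.26-fold lower signal, called under every alternative at the same threshold. CD93, a C-type lectin-like receptor of progenitors and endothelium, fell by 0.49 (SE 0.090, adjusted p = 0.00107), but was not called with equal medians (-0.25) or equal hybridisation controls (-0.20). CLEC12A, an inhibitory lectin receptor of myeloid cells, had 4.37, 2.53 and 5.31 in HHT and 6.21, 5.55 and 6.14 in vehicle. It was called at an adjusted p of 0.0472 and was at least 2.00-fold lower, with each HHT array set to no less than the filter level. The call held in 1 of 5 fits on 5 arrays, the one lacking HHT replicate 3, with adjusted p reaching 0.124 in the others. It was also lost under the 3 other scalings.

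CD244, a receptor of natural killer and myeloid cells also known as 2B4, had 9.42, 9.36 and 9.44 in HHT and 7.86, 8.25 and 8.11 in vehicle. It rose by 1.33 (SE 0.13, adjusted p = 9.24e-06), a 2.52-fold higher signal. Its ligand CD48, a lipid-anchored protein, had 7.32, 7.13 and 6.78 in HHT and 7.87, 7.63 and 7.32 in vehicle, and its change of -0.53 (SE 0.22, adjusted p = 0.0668) was not called. CD48 was called with the replicate number as a block (adjusted p = 0.0383), without vehicle replicate 3 (-0.67, adjusted p = 0.0372) and without HHT replicate 1 (-0.65, adjusted p = 0.0457). The genes of this receptor and its ligand are close neighbours, with 3 protein-coding genes between them in RefSeq (GRCh38.p14). The log2 ratio of CD244 to CD48 averaged 2.33 ± 0.294 in HHT and 0.47 ± 0.421 in vehicle (exact permutation p = 0.1, two-sided). CD200 rose by 0.33 (SE 0.097, adjusted p = 0.0179), a call lost without vehicle replicate 2 or 3 (adjusted p up to 0.0528). A dimmer CD200 probe set rose by 0.93 (SE 0.15, adjusted p = 0.000383). THY1, a lipid-anchored stem cell antigen, and CD7, an early lymphoid antigen, differed by 0.11 and -0.24 with standard errors of 0.54 and 0.71, so a change of 1 could not be told from the spread there. PROM1 (CD133) and CD38 lay below the filter on average. CD38, an ectoenzyme that cleaves NAD, had 2.37, 5.27 and 5.03 in HHT and 3.66, 5.02 and 1.82 in vehicle, a spread wider than any difference between the groups.

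Among myeloid antigens, scavenger receptors and Fc receptors, 2 of 6 tested rose (CD86 and CD300A) and none fell. CD86, the costimulatory ligand of CD28 on antigen-presenting cells, had 6.76, 6.54 and 6.57 in HHT and 4.90, 6.26 and 5.63 in vehicle, and rose by 1.02 (SE 0.37, adjusted p = 0.0433). A second probe set rose by 1.65 (SE 0.51, adjusted p = 0.0219). On 5 arrays the brighter CD86 probe set kept its call in 1 of 6 fits, the one lacking vehicle replicate 2, and its adjusted p reached 0.111. CD300A, an inhibitory receptor of myeloid cells, rose by 0.45 (SE 0.12, adjusted p = 0.0111), or by 0.74 with equal hybridisation controls. Neither of the dimmer CD300A probe sets was called, at 0.37 for one and with an HHT mean of 4.61, under the filter level, for the other. ANPEP had 7.44, 7.65 and 7.09 in HHT and 7.86, 7.34 and 7.90 in vehicle, overlapping groups with a change of -0.31 (SE 0.22, adjusted p = 0.271). CD4, a co-receptor also found on monocytes, differed by -0.0076 (SE 0.19, adjusted p = 0.979), and the Fc receptor FCGR2A by -0.29 (adjusted p = 0.391). The Fc receptor FCGR1A was not called (adjusted p = 0.0976), and its HHT mean of 4.21 lay under the filter level. A probe set annotated to FCGR1A and also to FCGR1BP and FCGR1CP was far brighter, at 10.48 to 10.71 in HHT and 10.68 to 11.10 in vehicle. It differed by -0.29 (adjusted p = 0.0522), and how much of its signal comes from FCGR1A is not known. CD14 had 1.47, 1.73 and 1.87 in HHT and 3.51, 1.16 and 1.20 in vehicle, near the bottom of the scale in both groups. The brightest probe set of CD36, a scavenger receptor, had 1.80, 4.41 and 1.47 in HHT and 5.65, 6.03 and 4.60 in vehicle, but its mean missed the filter. With no filter it differed by -2.87 (adjusted p = 0.0405), with each HHT array under the filter level. The other CD36 probe sets also missed the filter. With no filter they differed by 0.87, -1.15, 0.60 and -1.19, none of them called.

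Beside these, the list of 24 granulocyte and monocyte maturation markers had 11 genes tested, of which 5 fell (45.5%) and none rose. Of all genes tested, 24.2% fell and 29.6% rose. MPO fell by 1.76 (SE 0.089) and ELANE, neutrophil elastase, by 1.43 (SE 0.34). The summed antilog signal of the list, most of it from MPO, ran from 9213 to 10741 in HHT and from 25718 to 29060 in vehicle. Among its monocyte genes, VCAN fell by 1.10 (adjusted p = 0.000786) and CSF1R by 1.16 (adjusted p = 0.0197), and LYZ differed by -0.51 (adjusted p = 0.145). FCN1, MNDA and CD163 missed the filter, as did S100A8 and S100A9. The means of S100A8 and S100A9 were 5.42 and 3.99 in HHT and 3.80 and 2.46 in vehicle. Positive but not called were CEBPE (0.29, adjusted p = 0.154) and CXCR2 (0.36, adjusted p = 0.0946). The uncalled AZU1, CAMP and CSF3R differed by -0.26, -1.22 and -0.043. The part of these markers in the antigen changes was not tested.

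The signalling adaptors carry ITAMs, paired tyrosine motifs through which receptors recruit the kinases SYK and ZAP70. CD247, the zeta chain of the T cell receptor complex, which also pairs with Fc receptors in natural killer cells, had 7.39, 7.09 and 7.13 in HHT and 9.64, 9.65 and 9.75 in vehicle. The groups were more than 2 log2 units apart, and CD247 fell by 2.48 (SE 0.13, adjusted p = 1.85e-07), a 5.57-fold lower signal. FCER1G, the Fc receptor gamma chain, had 6.93, 6.82 and 6.96 in HHT and 6.75, 6.64 and 6.53 in vehicle, a change of 0.26 that was not called (SE 0.21, adjusted p = 0.341). Its dimmer second probe set was at least 2.07-fold higher (adjusted p = 0.0395 without that bound), with a vehicle mean of 4.69 under the filter level. For TYROBP, also called DAP12, the uncalled change was 0.92 (SE 0.46, adjusted p = 0.128). NKG7 had 6.61, 6.89 and 6.71 in HHT and 4.33, 3.16 and 4.70 in vehicle. With each vehicle array set to no less than the filter level it was at least 3.84-fold higher. NKG7 passed the filter only through its HHT arrays. Its adjusted p of 0.000964 came from the fit without that bound, as did its calls whichever array was omitted. Those calls thus rest on vehicle values under the filter level. Among 17 tested genes that act behind these receptors and CD45, 6 rose (35.3%) and 4 fell (23.5%), with a median of 0.13. Of all genes tested, 29.6% rose and 24.2% fell. LAT2, a linker protein, fell by 1.25 (SE 0.27) and VAV1, an exchange factor for RAC, rose by 1.19 (SE 0.069).

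Tetraspanins moved apart: CD53 and CD37 rose, CD81 fell, and CD9, CD82 and CD151 were not called. CD53, a tetraspanin of white cells, had log2 signals of 12.01, 11.88 and 11.98 in HHT and of 10.33, 10.17 and 10.20 in vehicle. It rose by 1.72 (SE 0.073, adjusted p = 5.60e-08), a 3.30-fold higher signal, and a second probe set rose by 1.83. CD81, a widely expressed tetraspanin, had 11.22, 11.25 and 11.23 in HHT and 12.86, 12.81 and 12.86 in vehicle, and fell by 1.61 (SE 0.055, adjusted p = 2.16e-08), a 3.06-fold lower signal. CD37, also restricted to white cells, had 8.72, 8.67 and 8.52 in HHT and 7.86, 8.01 and 8.03 in vehicle, and rose by 0.67 (SE 0.13, adjusted p = 0.00134). CD151, a partner of laminin-binding integrins, differed by 0.31 (adjusted p = 0.146) and was called with equal medians (0.55), equal hybridisation controls (0.60) and without vehicle replicate 3 (0.47). CD82 had 6.72, 7.04 and 6.60 in HHT and 3.49, 6.92 and 6.32 in vehicle, where 1 dim array set the difference of 1.21 (adjusted p = 0.196), and the value was 0.17 without that array. From the mean of both its probe sets CD82 was called higher (1.82, adjusted p = 0.00937). The dimmer of them, which missed the filter, had 6.55, 5.48 and 4.18 in HHT and 4.08, 2.21 and 2.61 in vehicle. CD9 differed by -0.26 (adjusted p = 0.745).

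PTPRC, the CD45 phosphatase that acts on SRC family kinases, had 13.22, 13.23 and 13.14 in HHT and 12.38, 12.43 and 12.47 in vehicle. It rose by 0.77 (SE 0.054, adjusted p = 1.28e-06), and its next 2 probe sets rose by 1.35 and 1.19. CD47, the signal that restrains phagocytes, had 12.86, 12.82 and 12.81 in HHT and 12.41, 12.34 and 12.48 in vehicle. It rose by 0.42 (SE 0.058, adjusted p = 0.000147), or by 0.70 with equal hybridisation controls. Of its 7 tested probe sets 2 rose, by 0.42 and 0.52, and 5 were not called, at values from -0.63 to 0.60. The complement regulators fell slightly. CD55, which breaks up the convertases, fell by 0.45 (SE 0.11, adjusted p = 0.00509), and all 3 of its probe sets fell. CD59, which blocks the membrane attack complex, fell by 0.24 (SE 0.063, adjusted p = 0.00923). Of its 5 tested probe sets 2 fell, and the others were not called, at -0.19, -0.11 and -0.25. Neither CD55 nor CD59 was called with equal medians (-0.21 for CD55 and -0.0024 for CD59) or equal hybridisation controls (-0.16 for CD55, and 0.04 for CD59, where the sign turned). CD52, a short lipid-anchored antigen, differed by 0.11 (SE 0.13, adjusted p = 0.545), and was called with equal hybridisation controls (0.39).

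Of the chemokine receptors, CCR1, a receptor for CCL3 and CCL5, had 7.40, 7.43 and 7.73 in HHT and 5.54, 5.48 and 5.29 in vehicle. It rose by 2.09 (SE 0.25, adjusted p = 4.72e-05), a 4.25-fold higher signal. The second CCR1 probe set, with a vehicle mean of 4.49 under the filter level, was at least 2.95-fold higher (adjusted p = 0.0172 without that bound). CXCR4, the receptor for CXCL12 that retains cells in the marrow, had 5.52, 2.95 and 2.86 in HHT and 2.46, 5.62 and 5.51 in vehicle on its brightest probe set, which missed the filter. Another CXCR4 probe set had 2.77, 2.21 and 1.06 in HHT and 5.34, 5.22 and 4.62 in vehicle. With no filter it differed by -3.05 (adjusted p = 0.0167), a difference that lies almost wholly below the filter level.

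**Figure D4:**
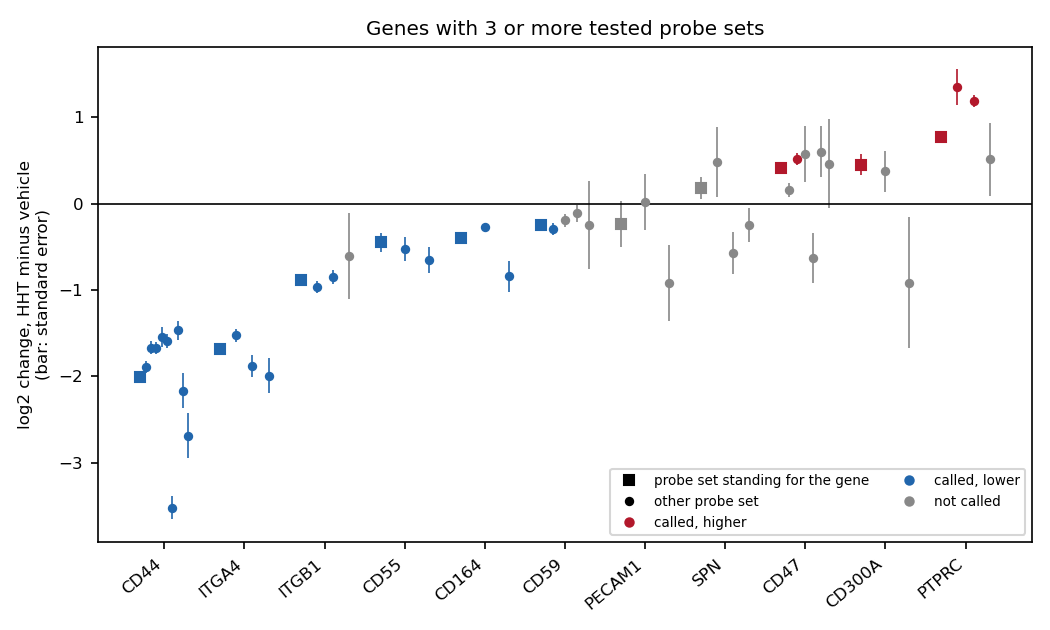
Log2 change, HHT minus vehicle (y axis, bar: standard error), of every tested probe set of the 11 genes with 3 or more, ordered within a gene from bright on the left to dim on the right. All probe sets of CD44, ITGA4, CD55 and CD164 are blue, called lower, and those of PECAM1, SPN, CD47 and CD300A lie on both sides of 0.

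Of 21 genes with 2 or more tested probe sets, 14 were called (66.7%). Beside this, 53.8% of all genes tested were called, whatever their number of probe sets. In 8 of these 14 surface genes every tested probe set was called the same way, and in 0 of the 21 were probe sets called in opposite directions. The same counts were not made for all genes with 2 or more tested probe sets. Whether this accord between probe sets is particular to surface antigens was therefore not tested.

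The promoters of the genes with the largest called changes and both means above the filter level are shown to place these changes on the genome, 2 that fell (CD247 and CD44) and 2 that rose (CCR1 and CD53). They were chosen after the values were seen. Each runs 5′ to 3′ from 250 bases before to 50 bases after the annotated start in RefSeq (GRCh38.p14), at chr1:167518480-167518779 (minus strand) for CD247, chr11:35138921-35139220 (plus strand) for CD44, chr3:46208264-46208563 (minus strand) for CCR1 and chr1:110870960-110871259 (plus strand) for CD53. Capitals mark the motifs searched on both strands: the RUNX core TGTGGT, the E-box CACGTG of MYC and MAX, the PU.1 core GAGGAA, the GC box GGGCGG, the AP-1 site TGACTCA and the consensus NF-kB p65 site.
CD247: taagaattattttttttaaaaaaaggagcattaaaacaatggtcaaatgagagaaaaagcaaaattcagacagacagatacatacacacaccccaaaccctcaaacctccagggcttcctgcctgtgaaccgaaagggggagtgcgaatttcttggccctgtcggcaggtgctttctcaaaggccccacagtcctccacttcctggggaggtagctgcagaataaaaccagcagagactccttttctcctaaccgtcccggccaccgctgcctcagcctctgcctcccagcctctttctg
CD44: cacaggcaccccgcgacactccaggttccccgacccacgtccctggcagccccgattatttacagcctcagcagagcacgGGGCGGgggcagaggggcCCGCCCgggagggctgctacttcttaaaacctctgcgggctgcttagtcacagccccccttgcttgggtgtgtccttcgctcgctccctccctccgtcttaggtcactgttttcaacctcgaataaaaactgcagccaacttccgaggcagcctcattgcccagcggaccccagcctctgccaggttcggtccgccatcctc
CCR1: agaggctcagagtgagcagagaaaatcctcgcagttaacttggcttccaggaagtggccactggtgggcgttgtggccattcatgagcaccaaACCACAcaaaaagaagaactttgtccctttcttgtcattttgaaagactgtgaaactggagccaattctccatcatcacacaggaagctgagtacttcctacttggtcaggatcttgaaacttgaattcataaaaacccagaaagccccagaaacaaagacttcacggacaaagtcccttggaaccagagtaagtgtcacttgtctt
CD53: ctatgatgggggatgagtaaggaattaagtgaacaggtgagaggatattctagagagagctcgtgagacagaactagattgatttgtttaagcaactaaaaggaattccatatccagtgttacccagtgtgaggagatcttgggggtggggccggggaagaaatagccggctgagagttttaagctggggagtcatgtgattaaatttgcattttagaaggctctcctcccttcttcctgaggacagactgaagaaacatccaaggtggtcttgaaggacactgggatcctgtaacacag
CD44 held 2 GC boxes and CCR1 held 1 RUNX core, and these letters were not in the other windows. Promoters were found for 37 of the 50 genes. The RUNX core was in 3 of 9 promoters of genes that rose and 2 of 10 of genes that fell, and in 13.1% of all 35116 promoters of this length. The GC box was in 2 of 9 and 6 of 10, and in 45.0% of all. The PU.1 core was in 2 of 9 and 4 of 10 (27.9% of all), the E-box in 0 of 9 and 1 of 10 (7.26%), the AP-1 site in 1 of 9 and 1 of 10 (4.95%), and the NF-kB site in 0 of 9 and 0 of 10 (0.191%). A match is a description of the letters and no binding site.

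The counts for genes that make, anchor or link surface proteins are read against 29.6% of all genes that rose and 24.2% that fell. Of 28 genes for translocation into the endoplasmic reticulum and N-glycosylation, 18 fell (64.3%) and 4 rose (14.3%), with a median of -0.34. Some of these falls were small, as for SPCS1 (-0.19), SRP72 (-0.24) and SRP14 (-0.24). The counts of each list are as deposited and were not made under other scalings. Over all genes, those that fell went from 3280 as deposited to 1718 with equal medians. RPN2, a subunit of oligosaccharyl transferase, fell by 1.61 (SE 0.069), and SEC61A1, the channel of the translocon, fell by 1.03 (SE 0.070). Of 27 genes for the lipid anchor that holds THY1, CD48, CD52, CD55 and CD59, 14 rose (51.9%) and 5 fell (18.5%), with a median of 0.27. PIGW fell by 1.70 (SE 0.10) and PIGV, a mannosyltransferase, rose by 1.01 (SE 0.089). Of 16 enzymes for selectin ligands and O-glycans, 6 fell (37.5%) and 5 rose (31.2%), with a median of -0.31. ST3GAL1, a sialyltransferase, rose by 1.14 (SE 0.14) and TPST1, which sulfates tyrosines, rose by 1.00 (SE 0.31). Of 23 genes that activate integrins or link them to actin, 7 rose (30.4%) and 5 fell (21.7%), with a median of 0.20, shares close to those of all genes. TLN1, the talin that binds beta chains, rose by 1.54 (SE 0.14) and CYTH1 rose by 1.31 (SE 0.089).

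**Figure D5:**
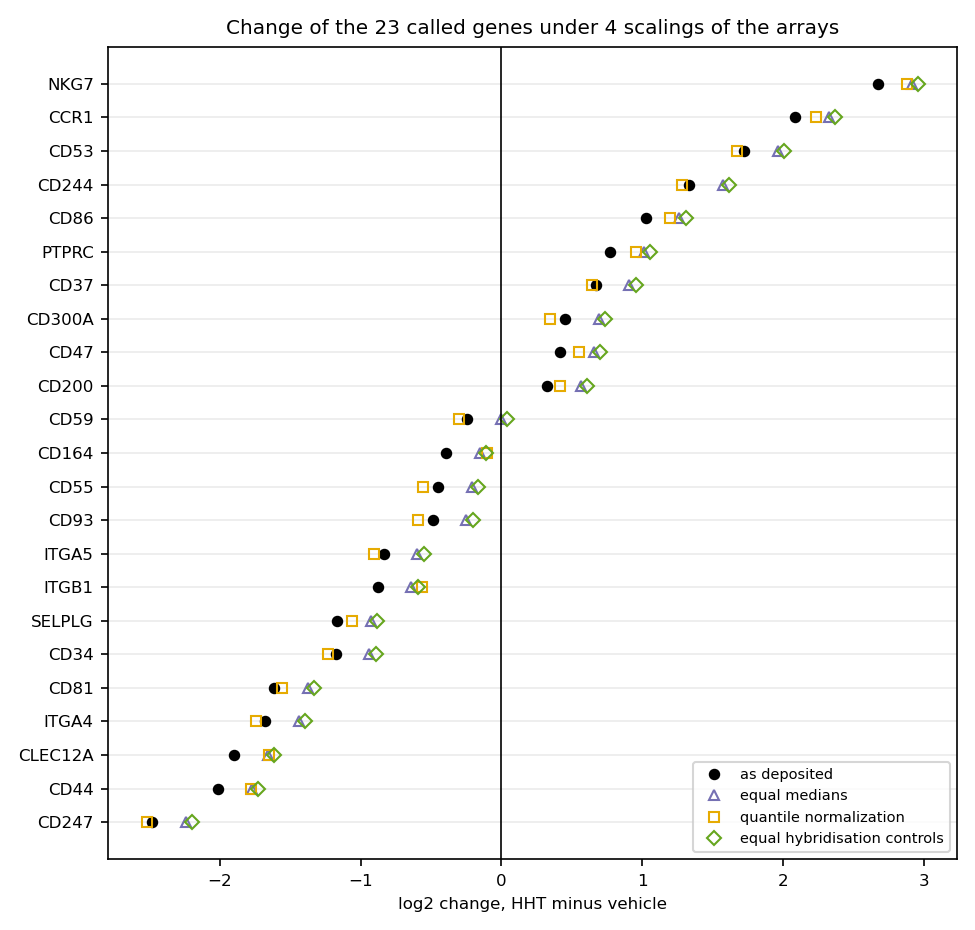
Log2 change, HHT minus vehicle (x axis), of the 23 called genes as deposited and after equal medians, quantile normalization and equal hybridisation controls. CD59 crosses 0 with equal hybridisation controls, and the genes with changes beyond 1 in size stay on their side of 0 under each scaling.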

How the data were processed

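RNA of 6 Kasumi-1 samples was measured on one-colour HG-U133 Plus 2.0 arrays. The authors deposited log2 signals for 54675 probe sets, and per the submitters' processing notes these come from MAS5, version not given. The mean antilog signal after trimming 2% at each end was 500.06 to 500.07 on every array, and no detection calls were used. The 62 control probe sets were left out, as were the 40% with the lowest mean, leaving 32768 probe sets. Gene symbols came from the platform's annotation table and were updated by Entrez ID. Groups were taken from the treatment labels and the test was limma 3.58.1 (R 4.3.3; lmFit, eBayes with a variance trend, Benjamini-Hochberg over all probe sets tested). Ratios of partner genes were tested by exact permutation over arrays (scipy 1.17.1). The number of arrays limits the precision. Folds of genes with 1 group under the filter level of 4.80 are bounds against that level, while figures show fitted values. Adjusted p-values always come from the fit without such bounds. Ratios were computed for gene pairs chosen with their values known. On simulated arrays of 32768 probe sets, 55.2% of 96 changed by 1 and 77.5% of 89 changed by 2 (log2) were called. The other 32583 were left unchanged. The adjustment of p depends on how many probe sets change, and 53.8% of genes were called in the data. The simulated shares are therefore not those of the fit reported here.

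The genes and lists were chosen with earlier results of these data known. All 50 genes are accounted for, with values on every array for called genes that changed by at least 0.5 without overlap and for 10 antigens chosen by name, of which CD33 gave none; of other lists, the 2 called genes of largest change are named. Alternatives tried were 3 other scalings, pseudocounts of 16 and 64, no filter or a 60% filter, 3 variance models, the replicate number as a block, stricter thresholds, probe sets averaged per gene, and omission of single arrays.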

Additional observations from a re-analysis of the deposited data

How the results depend on the processing

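Of the 23 called genes, 11 stayed called in the same direction under each alternative at the same threshold that gave a value. The calls of CD93, CD55 and CD59 were lost with equal medians and equal hybridisation controls, that of CD164 also after quantile normalization, and those of CLEC12A, CD86 and CD200 when single arrays were left out. CLEC12A and CD86 were also not called with no filter, and CLEC12A, CD86, CD200, CD300A and CD59 were not called without the variance trend. Averaging probe sets ended the calls of CD244 (1.17), CD247 (-1.02), ITGB1 (-0.70) and CD59 (-0.22), and CD82 gained one (1.82). The sign turned for CD59 with equal hybridisation controls (0.042) and, from the mean of probe sets, for CD300A (-0.028) and CD37 (-0.10), none of them called; the cause was not tested. Under equal medians 8 of the 42 genes fell and 12 rose; hybridisation-control scaling gave 8 and 13, and quantile normalization 12 and 10. From the mean of probe sets 8 fell and 15 were called in all, and with an absolute change of at least 1 required 7 fell, 5 rose and 12 were called. Across all genes, 3280 fell as deposited, 1718 under equal medians and 1741 under hybridisation-control scaling. The share of calls that were higher was 55.1%, 74.7% and 76.4% in that order, and these scalings put the median of all genes at 0.24 and 0.28. With an absolute change of at least 1 required, 2103 genes were called, 1297 higher and 806 lower, and 17 genes of the other lists. Leaving out each array gave 21 to 22 called surface genes. With the replicate block 25 were called (15 fell, 10 rose) and 7394 genes in all. Deviations of same-numbered arrays from their group means correlated at 0.065, -0.014 and 0.049. Those of differently numbered arrays correlated at -0.089 to 0.042. Such small values cannot decide whether the numbers pair the arrays, and the labels do not say. For dim genes the spread between arrays limits what can be seen.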

Other observations

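Some genes of other lineages gave high signal in the myeloid line, while others on the same lists were dim or missed the filter. In the list of 18 lymphoid markers, PAX5, a B cell transcription factor, had log2 signals of 10.03 ± 0.0660 in HHT and 10.28 ± 0.0403 in vehicle (SD, n = 3 each). CD3D, a chain of the T cell receptor complex, had 11.76 ± 0.107 in HHT and 11.62 ± 0.0197 in vehicle, a difference that was not called. CD3E and CD3G, on the same list, had vehicle means of 5.84 and 4.19, and CD3G missed the filter. Only 10 of the 17 lymphoid markers with a probe set passed it. Of the 10 lymphoid markers tested 2 rose (20%) and 1 fell (10%), with a median of -0.27. CD22 rose by 1.48 (SE 0.19) and CD79B by 0.93 (SE 0.10). Of all genes tested, 29.6% rose and 24.2% fell. Of 15 adherent and stromal cell markers with a probe set 7 were tested, of which 2 fell (28.6%) and none rose. EPCAM, an epithelial adhesion molecule, had 12.93 ± 0.0807 in HHT and 13.69 ± 0.0216 in vehicle, and COL1A1 fell by 0.86 (SE 0.28). KRT8 and KRT18 of the same list had vehicle means of 6.87 and 5.85, and CDH1 and KRT19 missed the filter. Among 8 erythroid and megakaryocyte markers tested 2 fell (25%) and none rose. KLF1 fell by 0.82 (SE 0.31) and TFRC, the transferrin receptor, by 0.53 (SE 0.047).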
